A study of Capsicum annuum and Capsicum annuum
Solanum lycopersicum with 48 samples.

Results

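Self-grafted tomato junctions at 3 days after grafting (DAG) were compared with junctions at 1 DAG, over all tomato gene models that the study quantified. These are 8 of the 48 samples of the series, 4 at each time point, and the comparison takes every row of the self-graft table, 33604 in all. Of these, 18813 rows reached 1 FPKM (fragments mapped to a gene, scaled to transcript length and library size) or more in at least 1 of the 2 groups and entered the counts.

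Both groups were Solanum lycopersicum var. M82 grafted onto itself as seedlings, and by their labels they differ in the day of harvest alone. The sources used here do not say how the libraries were spread over preparation batches or sequencing lanes. Every sample was polyadenylated RNA from the junction of 1 plant with the scion and stock tissue next to it, so the values mix callus, vascular tissue, pith, cortex and epidermis of both graft partners. By the study's methods the grafts were kept in the dark until after the 3 DAG harvest, so the time since grafting and the time spent in darkness cannot be told apart. Ungrafted stems, wounded stems and stems before cutting were not analysed here, so no value shows what grafting itself did. The series holds the same time points, and 5 DAG, for the pepper self-graft and for both heterografts.

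A cut stem closes in stages. Wound signals, many of them ethylene and jasmonate responses, come first and the cut faces adhere. Parenchyma cells then divide into callus, and the cambium and new xylem and phloem join the vascular strands of scion and stock. Cambium is maintained by TDIF peptides, which bind the receptor kinase PXY and act through the homeobox transcription factors (TFs) WOX4 and WOX14, while VND and NST type NAC TFs switch on xylem vessel and fibre formation. These roles were worked out mainly in Arabidopsis thaliana, and the tomato genes carry the names of their A. thaliana orthologs as the study assigned them.

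The tables give 1 FPKM value per group, so no spread between the 4 junctions of a group, standard error or test is given here for any gene. The authors' own q-values stand in the same tables and were not used. All changes are given as the log2 ratio of FPKM + 1 at 3 DAG over FPKM + 1 at 1 DAG, which understates the change of genes near or below 1 FPKM. A gene is counted as higher or lower by its size of change only, at a log2 change of 2 (4-fold) or of 1 (2-fold). The tables hold no read counts, so library depth is unknown. FPKM is corrected for transcript length, so levels of different genes can be set side by side.

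More genes were higher at 3 than at 1 DAG than were lower, as the values were deposited. At a log2 change of at least 2, 279 genes were higher, which is 1.48% of those counted. At a log2 change of at most -2, 111 genes were lower, or 0.590%. At the smaller threshold of 1, 2358 genes (12.5%) were higher and 932 (4.95%) lower. The middle 50% of genes lay between -0.41 and 0.60 on the log2 scale and the middle 90% between -0.996 and 1.41, with a median change of 0.06. So most junction transcripts stayed within 2-fold of their 1 DAG level, and the excess of higher genes lay in the upper tail.

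**Figure D1:**
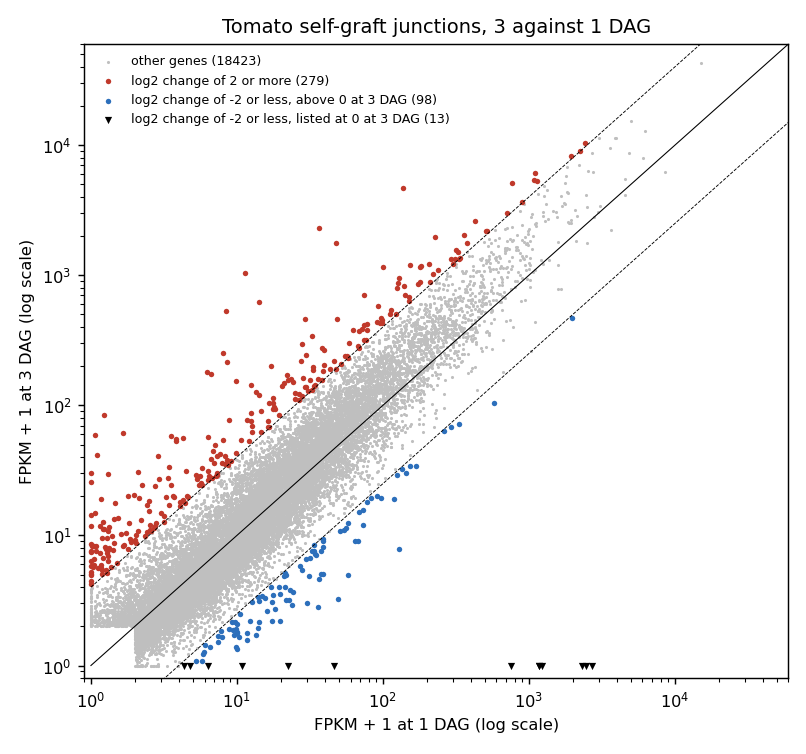
FPKM + 1 of each of the 18813 genes at 1 DAG (x axis) and at 3 DAG (y axis), both on log scales, with 1 point per gene and dashed lines at a 4-fold difference. The 279 higher genes (red) run from genes near 0 to genes over 1000 FPKM, while 13 of the 111 lower genes (black triangles) lie on the lower edge because they are listed at 0 at 3 DAG.

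This excess depends on how the groups are scaled. The FPKM values of all genes summed to 866606 at 1 DAG and 1406353 at 3 DAG, a ratio of 1.62. Rescaling both groups to the same sum moved the median log2 change by -0.60, and turned the split to 111 higher and 302 lower genes at a log2 change of 2. All 111 lower genes remained lower, which was fixed in advance because that scaling moves every change downward. Of the 279 higher genes, 111 remained higher. With both groups set to the same upper quartile, which moved the median by -0.26, the counts were 179 and 170. At a log2 change of 1, 71.7% of the genes past the threshold were higher as deposited, 40.4% with equal upper quartiles and 12.3% with equal sums. Centring on the median left 66.6% higher at a log2 change of 2, against 71.5% as deposited. Relative to a total of FPKM that is fixed, then, more genes lost share than gained it between 1 and 3 DAG.

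The abundant transcripts carried the larger sum. Genes were grouped by their level at 5 DAG, a group of junctions that the comparison does not use. Among the 2776 genes at 1 to 3 FPKM at 5 DAG the median log2 change from 1 to 3 DAG was -0.29, and among the 5160 genes at 3 to 10 FPKM it was -0.15. It was 0.12 at 10 to 30 FPKM, 0.45 at 30 to 100 FPKM, 0.65 at 100 to 300 FPKM, 0.86 at 300 to 1000 FPKM and 1.15 in the 97 genes over 1000 FPKM. Of these 97 genes, 61.9% were higher by a log2 change of 1 or more, against 4.68% of the genes at 1 to 3 FPKM. The 100 most abundant genes held 24.0% of the FPKM sum at 1 DAG, 31.5% at 3 DAG and 27.1% at 5 DAG.

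**Figure D2:**
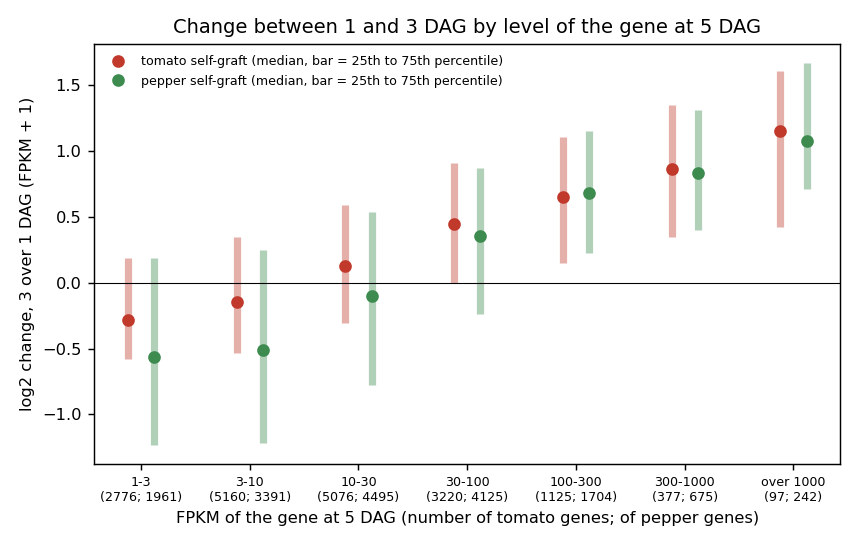
Median log2 change of 3 over 1 DAG (points) and the 25th to 75th percentile of genes (bars) for genes grouped by their FPKM at 5 DAG, in the tomato self-graft (red) and the pepper self-graft (green), with the number of genes under each group. The tomato medians climb from -0.29 to 1.15 and the pepper medians from -0.56 to 1.08.

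The pepper self-graft showed a like slope in its own libraries and its own table. Its medians went from -0.56 at 1 to 3 FPKM to 1.08 over 1000 FPKM, and its FPKM sum from 1350390 at 1 DAG to 2360108 at 3 DAG and 1585777 at 5 DAG. The tomato sum likewise went back, to 924845 at 5 DAG. In each of the 4 grafts, heterografts included, the 3 DAG column had the largest sum. What part sampling day, library preparation or the scaling step have in the slope was not tested.

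The genes past a log2 change of 2 differed in kind of level. The 279 higher genes had a median of 7.01 FPKM at 1 DAG, 54.4 FPKM at 3 DAG and 35.7 FPKM at 5 DAG. Under 1 FPKM were 71 of them at 1 DAG and 10 at 5 DAG. At 3 DAG, 118 stood at 100 FPKM or more. The 111 lower genes had medians of 22.9, 2.33 and 3.66 FPKM at 1, 3 and 5 DAG. At 1 DAG 19 of them were at 100 FPKM or more, and at 3 DAG 2 were. In both sets, the 5 DAG median thus lay nearer to that of 3 DAG than to that of 1 DAG. Among the genes above 0 in both groups, a log2 change of 3 or more was reached by 57 higher and 7 lower genes, and of 4 or more by 17 and 1. These counts are as deposited and were not repeated with other scalings. The pseudocount also caps each change by the higher level of the gene. That level had a median of 54.4 FPKM in the higher set and 22.9 FPKM in the lower set.

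Some of the steepest apparent drops were genes listed at exactly 0. Of the 111 lower genes, 13 were listed at 0 FPKM at 3 DAG, and 7 of these had 753 to 2686 FPKM at 1 DAG. At 5 DAG, 6 of the 7 were listed again, at 1495 to 10724 FPKM. No gene was listed at 0 at 1 or at 5 DAG while having 100 FPKM or more at both other time points, and 6 were at 3 DAG. An exact 0 in these tables can be an estimate that failed, so no fold is given for these genes. Without the genes listed at 0 in either group, 267 higher and 98 lower genes were left. All 12 higher genes listed at 0 at 1 DAG were under 30 FPKM at 3 DAG, the highest at 29.1 FPKM.

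Among genes above 0 in both groups and at 10 FPKM or more in the higher one, the largest increases belonged to Solyc06g005470.3 and Solyc07g066360.1. Solyc06g005470.3 went from 10.3 FPKM at 1 DAG to 1037 FPKM at 3 DAG, a log2 change of 6.52, and stood at 256 FPKM at 5 DAG. Solyc07g066360.1 went from 0.235 to 83.3 FPKM, a log2 change of 6.09, and on to 402 FPKM at 5 DAG. The first of these was therefore highest at 3 DAG and the second still higher at 5 DAG.

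The largest decreases were those of a merged row of Solyc01g060010.2 and Solyc01g060020.3 and of Solyc02g078930.2. The merged row went from 127 to 6.89 FPKM between 1 and 3 DAG, a log2 change of -4.02, and to 1.94 FPKM at 5 DAG. Solyc02g078930.2 went from 48.4 to 2.26 FPKM, a log2 change of -3.92, and to 0.404 FPKM at 5 DAG. Both went on down after 3 DAG. No annotation used here gives a function for these identifiers.

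Genes past the threshold were found on every tomato chromosome, read from the gene identifier. The share at a log2 change of 2 or more ran from 0.782% of 1279 genes on chromosome 11 to 2.29% of 1400 genes on chromosome 7, among the 12 numbered chromosomes. The share at -2 or less ran from 0.313% on chromosome 11 to 0.75% of 2400 genes on chromosome 1. Chromosome 11 thus had the lowest share in both directions. In identifier order, 28 of the 279 higher genes (10%) lay next to another higher gene, against 2.00% of all genes counted, with a longest run of 4 on chromosome 12. Of the 111 lower genes, 13 (11.7%) lay next to another lower gene, against 0.824% of all genes, with a longest run of 3 on chromosome 9.

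The study names 56 tomato genes by identifier, and 46 of them reached 1 FPKM in at least 1 of the 2 groups. As deposited, 9 of the 46 were higher by a log2 change of at least 1, against 12.5% of all genes, and 6 were lower by as much, against 4.95%. At a log2 change of 2, JRE4 and an LBD4 gene were higher and 0 genes were lower. Their median change was -0.04, with 23 above and 23 below 0. With equal FPKM sums, 2 of the 46 were higher and 16 lower by a log2 change of 1, where 3.21% of all genes were higher and 22.9% lower. The genes are taken below by role, and their choice by the study rests in part on these same samples.

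**Figure D3:**
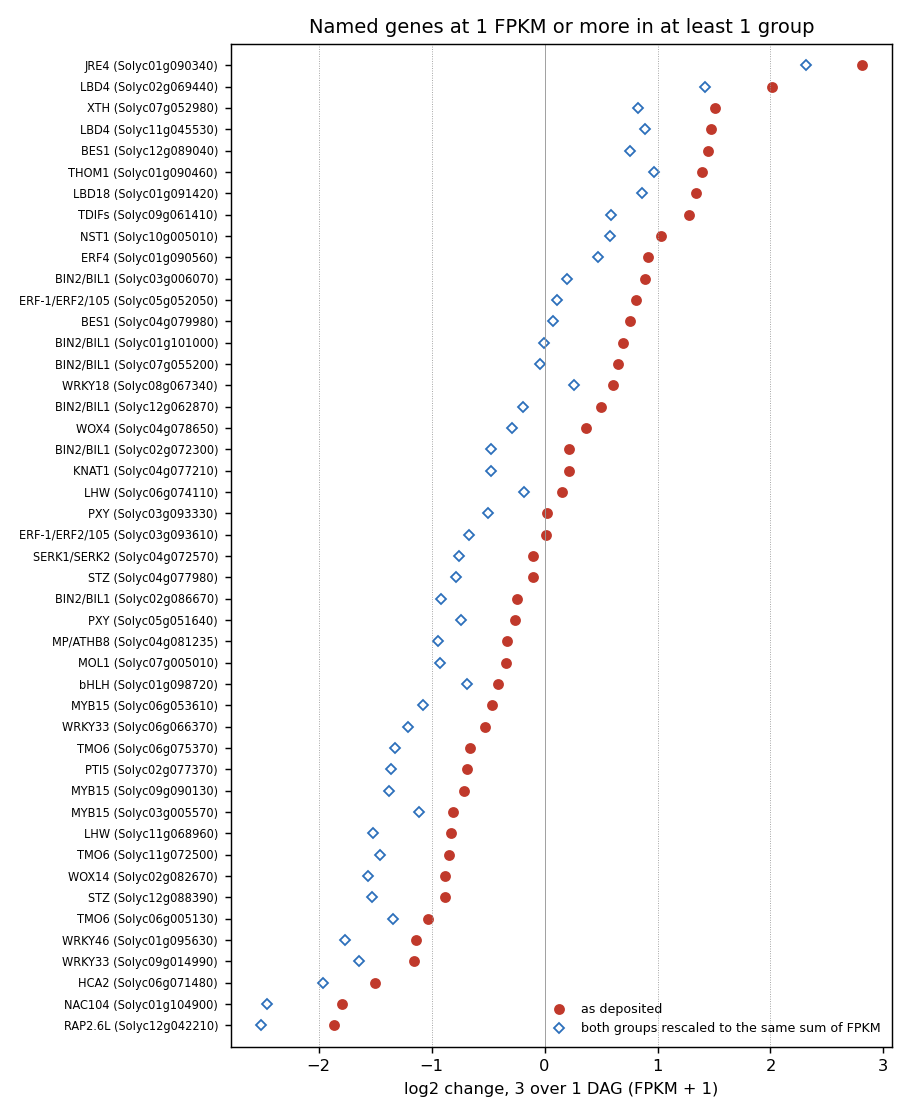
Log2 change of 3 over 1 DAG (x axis, from FPKM + 1) of the 46 named genes that reached 1 FPKM, 1 line per gene, as deposited (red circles) and with both groups rescaled to the same FPKM sum (open blue diamonds), dotted lines at 1 and 2 in both directions. JRE4 lies highest at 2.81 and RAP2.6L lowest at -1.86 as deposited, and the rescaling moves every gene to the left.

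NAC104, RAP2.6L and HCA2 were lower at 3 than at 1 DAG by more than 2-fold. The study placed these genes and PTI5 in its 1 DAG module on these same samples, so their direction is a description only. NAC104 (Solyc01g104900), a NAC TF whose A. thaliana ortholog holds back cell death in forming xylem, had 59.95 FPKM at 1 DAG and 16.5 FPKM at 3 DAG, a log2 change of -1.80. RAP2.6L (Solyc12g042210), an ethylene response factor needed for tissue reunion in cut A. thaliana stems, went from 48.3 to 12.6 FPKM, a log2 change of -1.86. HCA2 (Solyc06g071480), a Dof TF that promotes cambial divisions, went from 6.26 to 1.56 FPKM, a log2 change of -1.50. All 3 thus stood at about 3.6 to 4.0 times their 3 DAG level at 1 DAG, though HCA2 went to -0.78 with a pseudocount of 5 FPKM. PTI5 (Solyc02g077370), an ethylene response factor of defence, had 46.4 and 28.5 FPKM, and its change of -0.69 stayed under 2-fold as deposited. It was -0.98 with equal upper quartiles and passed 2-fold with equal sums (-1.36).

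JRE4, LBD18 and THOM1 were higher at 3 DAG by more than 2-fold, from low levels. JRE4 (Solyc01g090340), a jasmonate-responsive ethylene response factor that controls steroidal glycoalkaloid synthesis in tomato, went from 0.400 to 8.84 FPKM, a log2 change of 2.81. LBD18 (Solyc01g091420), a lateral organ boundaries TF of callus and lateral root formation, went from 0.945 to 3.94 FPKM (1.34). THOM1 (Solyc01g090460), a tomato homeobox gene, went from 0.482 to 2.89 FPKM (1.39). ERF4 (Solyc01g090560), another ethylene response factor, had 0.906 and 2.59 FPKM, a log2 change of 0.91 that stayed under 2-fold on this scale. All 4 genes were below 1 FPKM at 1 DAG and passed the limit through 3 DAG alone, and the study made them hubs of its 3 and 5 DAG modules on these samples, so their direction is a description only. With equal sums JRE4 kept a log2 change of 2.32, while LBD18 and THOM1 went to 0.86 and 0.97.

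XTH enzymes cut and rejoin xyloglucan, the polymer that ties cellulose fibres together in growing walls. The XTH gene Solyc07g052980 had 39.5 FPKM at 1 DAG, 115 FPKM at 3 DAG and 187 FPKM at 5 DAG, and its log2 change was 1.51 as deposited and 0.82 with equal sums. The other named XTH gene, Solyc11g065600, did not reach 1 FPKM at 1 or 3 DAG. It was listed at 0.347 and 0.709 FPKM. The 2 XTH genes therefore differed in level by far more than either changed.

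**Figure D4:**
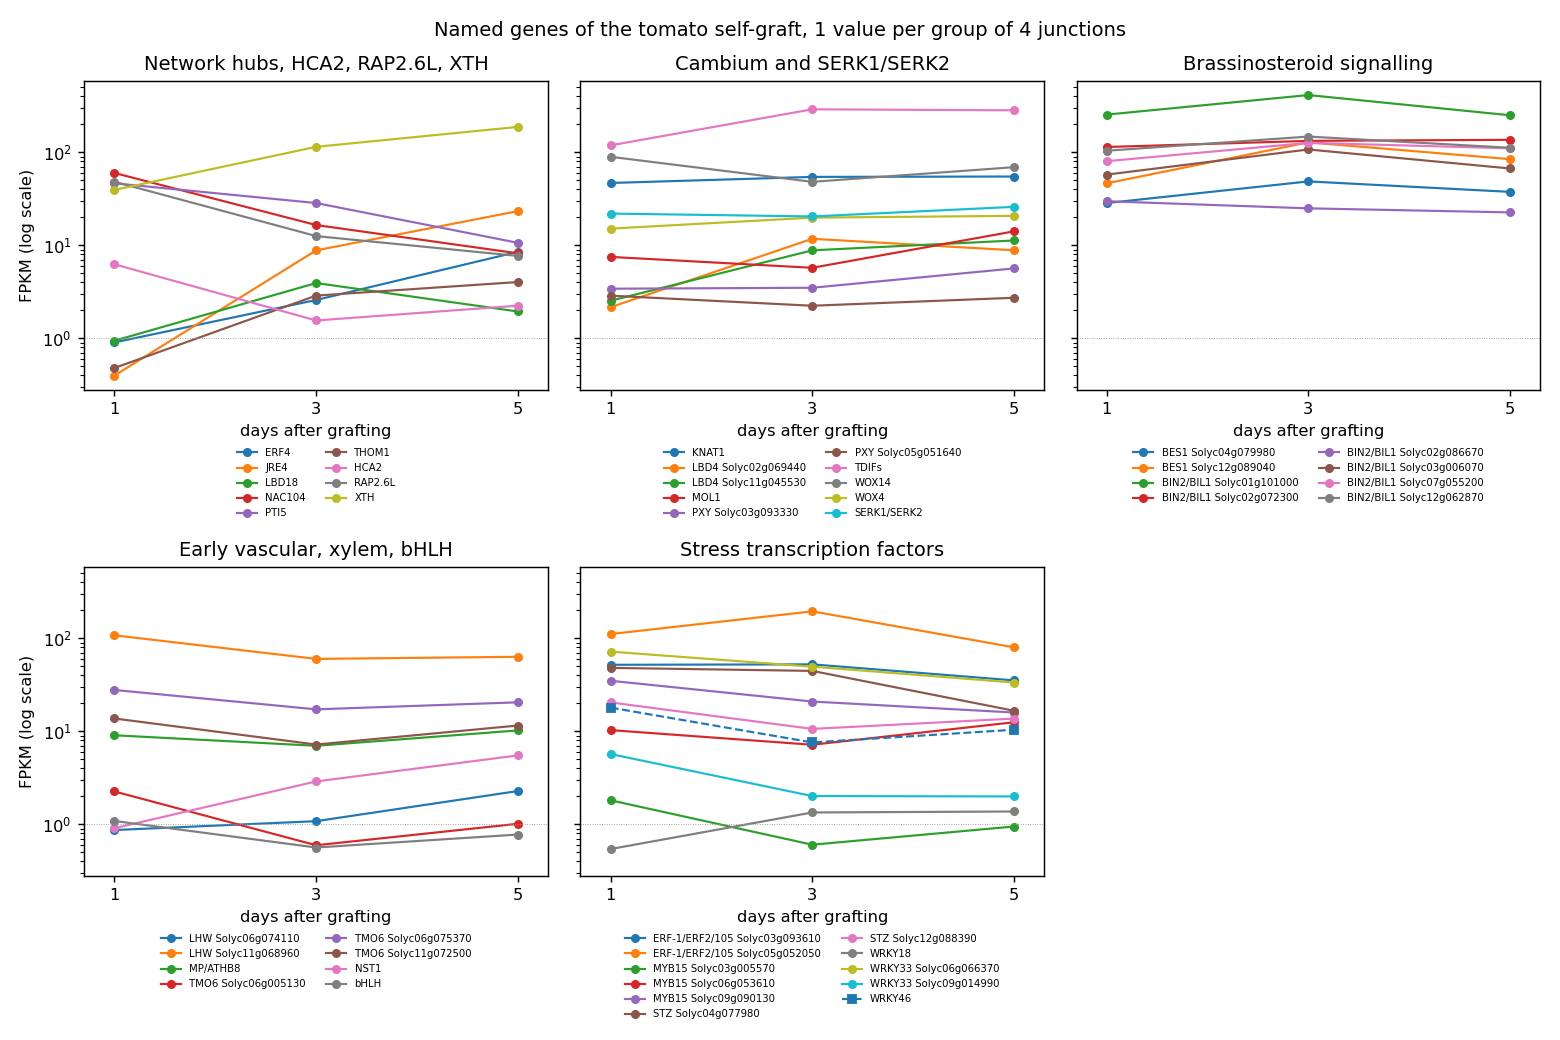
FPKM (log scale) at 1, 3 and 5 DAG of the 46 named genes, in panels by role, with 1 point per group of 4 junctions and lines joining the points of a gene. NAC104 and RAP2.6L start at 59.95 and 48.3 FPKM and are lower at each step, JRE4 climbs from 0.400 to 23.3 FPKM, and the brassinosteroid genes all stay at 22.6 FPKM or more.

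Cambium genes did not move together. The TDIF gene (Solyc09g061410), which encodes the peptide ligand, went from 119 to 289.8 FPKM, a log2 change of 1.28. Its receptor PXY hardly differed, with 3.42 and 3.50 FPKM for Solyc03g093330 and 2.88 and 2.24 FPKM for Solyc05g051640. MOL1 (Solyc07g005010), a receptor-like kinase that restrains cambium activity, had 7.52 and 5.74 FPKM (-0.34). As deposited, the ligand gene was thus higher by 2.44-fold and its receptor genes stayed within 1.3-fold. The ligand gene went under 2-fold with equal upper quartiles (0.98) and with equal sums (0.58), where the PXY genes stood at -0.50 and -0.74.

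Downstream of the receptor, WOX4 (Solyc04g078650) had 15.1 and 19.9 FPKM, a log2 change of 0.37. WOX14 (Solyc02g082670) had 89.5 and 48.2 FPKM, a log2 change of -0.88, and 69.2 FPKM at 5 DAG. The pair of homeobox genes thus differed in sign as deposited, but not with equal sums, where WOX4 stood at -0.29 and WOX14 at -1.56.

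The LBD4 genes, which mark the border of cambium and phloem in A. thaliana, were the largest cambium changes. Solyc02g069440 went from 2.17 to 11.8 FPKM, a log2 change of 2.01. That change was 1.95 when centred on the median and 1.42 with equal sums. Solyc11g045530 went from 2.54 to 8.85 FPKM, a log2 change of 1.47 that was 0.89 with equal sums. The third LBD4 gene, Solyc12g100150, was under 1 FPKM at both time points. KNAT1 (Solyc04g077210), a homeobox TF of meristems and stems, was level at 46.8 and 54.4 FPKM. In all, 3 of the 9 cambium genes that reached 1 FPKM were higher by a log2 change of 1 or more and 0 lower. Over all genes, 12.5% were higher and 4.95% lower. The median of the cambium genes was 0.21 against 0.06 over all genes. With equal sums that median was -0.47, against -0.53 over all genes. The counts were then 1 and 1, against 3.21% and 22.9% of all genes.

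ERECTA-type receptors, which work with SERK co-receptors in stem growth, were low. ER (Solyc08g061560) had 0.790 and 0.675 FPKM and the ER-like gene Solyc03g007050 had 0.312 and 0.272 FPKM, both under the limit of 1 FPKM. The SERK1/SERK2 gene (Solyc04g072570) had 22.0 and 20.4 FPKM, a log2 change of -0.10. None of the 3 receptor genes thus changed by 2-fold.

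Brassinosteroid signalling genes were among the most abundant named genes, and 7 of 8 had a positive change as deposited. BES1 TFs carry the brassinosteroid signal to target genes, and BIN2/BIL1 kinases switch them off and also link PXY to xylem differentiation. The BES1 gene Solyc12g089040 went from 46.4 to 128 FPKM, a log2 change of 1.44. It was the 1 gene of the 8 past 2-fold, though not with equal sums (0.75), where 12.5% of all genes were higher by as much as deposited. The other BES1 gene, Solyc04g079980, had 28.5 and 48.7 FPKM (0.75).

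The 6 BIN2/BIL1 kinase genes ranged from -0.24 for Solyc02g086670, with 29.8 and 25 FPKM, to 0.89 for Solyc03g006070, with 57.6 and 107 FPKM. The most abundant of them, Solyc01g101000, had 254 FPKM at 1 DAG, 412 FPKM at 3 DAG and 250.0 FPKM at 5 DAG. The median of the 8 brassinosteroid genes was 0.67 as deposited and -0.02 with equal sums, so the direction of the group rests on the scaling. At 5 DAG these genes lie between 10 and 300 FPKM, where the medians over all genes were 0.12 to 0.65 by level.

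The early vascular genes were lower or level. TMO6 genes encode Dof TFs that act downstream of the auxin response factor MP (MONOPTEROS) in the first vascular cells, and LHW is a bHLH TF needed for the divisions of those cells. The 3 TMO6 genes had 2.26 and 0.597 FPKM (Solyc06g005130, -1.03), 27.8 and 17.2 FPKM (Solyc06g075370, -0.66) and 13.7 and 7.22 FPKM (Solyc11g072500, -0.84). LHW Solyc11g068960 had 108 and 60.1 FPKM, a log2 change of -0.83, and LHW Solyc06g074110 had 0.870 and 1.08 FPKM. Solyc04g081235 carries the names of both MP and ATHB8. It had 9.07 and 7.0 FPKM, a log2 change of -0.33.

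Of these 6 early vascular genes, 5 were thus below their 1 DAG level. Only 1 passed 2-fold, where 4.95% of all genes did, and none with a pseudocount of 5 FPKM. Their median was -0.75 against 0.06 over all genes. With equal sums 4 were lower by a log2 change of 1 or more, as were 22.9% of all genes. At 5 DAG all 3 TMO6 genes stood between their 3 DAG and 1 DAG levels, at 1.02, 20.5 and 11.5 FPKM.

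Genes of xylem identity were low at both time points. VND6 and VND7 (2 genes each), the NAC TFs that start vessel formation, and NST2, a NAC TF of fibre walls, were all under 1 FPKM at 1 and 3 DAG. The highest of these values was 0.967 FPKM, for VND6 Solyc06g034340 at 3 DAG. NST1 (Solyc10g005010) had 0.911 FPKM at 1 DAG, 2.90 FPKM at 3 DAG (log2 change of 1.03) and 5.51 FPKM at 5 DAG. Its change went under 2-fold when centred on the median (0.96), with equal upper quartiles (0.84), with equal sums (0.58) and with a pseudocount of 5 FPKM (0.42). In whole junctions, fewer cells of a type and less RNA per cell cannot be told apart, and this holds for every gene here.

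The stress TF genes were mostly lower, by small amounts. Of 12 genes, 11 reached 1 FPKM, and 8 of the 11 were below their 1 DAG level, 2 of them by a log2 change of 1 or more. Over all genes, 4.95% were lower by as much. WRKY46 (Solyc01g095630) went from 18.0 to 7.60 FPKM (-1.14) and WRKY33 Solyc09g014990 from 5.70 to 2.02 FPKM (-1.15). With a pseudocount of 5 FPKM these changes were -0.87 and -0.61. WRKY factors of this kind act in pathogen and wound responses. The more abundant WRKY33 gene, Solyc06g066370, had 71.9 FPKM at 1 DAG, 49.6 FPKM at 3 DAG and 33.5 FPKM at 5 DAG.

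The 3 MYB15 genes, TFs that turn on defence lignin, had log2 changes of -0.81, -0.47 and -0.71. STZ encodes a zinc finger repressor of the abiotic stress response, and its genes had 48.1 and 44.6 FPKM (Solyc04g077980) and 20.5 and 10.6 FPKM (Solyc12g088390, -0.88). The ethylene response factor gene Solyc05g052050 went against this as deposited, with 111.0 and 195 FPKM (0.81), but stood at 0.11 with equal sums. The other, Solyc03g093610, was level at 51.9 and 52.5 FPKM (0.02) and stood at -0.67 with equal sums. WRKY18 Solyc08g067340 had 0.544 and 1.34 FPKM (0.60), and the other WRKY18 gene did not reach 1 FPKM. The group median was -0.53 as deposited, against 0.06 over all genes. It was -1.11 with equal sums, where 7 of the 11 genes were lower by a log2 change of 1. Over all genes that scaling gave a median of -0.53 and 22.9% lower.

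The bHLH gene Solyc01g098720, a regulator in the study's heterograft networks, had 1.09 and 0.565 FPKM. It thus stood at the limit of 1 FPKM, with a change of -0.42.

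The targets in the study's self-graft network split by module between 1 and 3 DAG. In the 1 DAG module 60 of 83 targets were lower and 4 higher by a log2 change of 1 or more, with a median of -1.50. Over all genes these shares were 4.95% and 12.5%. In the 3 DAG module 73 of 93 were higher and 3 lower. The 5 DAG module has 98 targets, of which 78 reached 1 FPKM at 1 or 3 DAG. Among these 78, 52 were higher and 0 lower, with a median of 1.33. Targets under 1 FPKM at 1 DAG entered only if they reached it at 3 DAG, so the 78 lean towards higher genes. Of all 98 targets, 52 were thus already higher by a log2 change of 1 or more at 3 DAG. The modules were built by the study on these samples, so these counts are not independent evidence of direction.

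The same tomato genes were followed in the heterografts, whose junctions are separate plants. There FPKM is scaled over both species, and the part of the sum held by tomato genes shifted between time points. It was 17.9% at 1 DAG, 51.7% at 3 DAG and 23.1% at 5 DAG in pepper:tomato (scion:stock), and 59.5%, 29.7% and 49.2% in tomato:pepper. The 3 DAG values thus moved in opposite ways in the 2 heterografts, so results are given as labelled and with the 3 DAG columns exchanged, a choice made after the values were seen.

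Of the 279 genes higher in the self-graft, 250 could be followed in tomato:pepper as labelled, and 131 of these were higher there by a log2 change of 1 or more, against 6.29% of all tomato genes in that graft. In pepper:tomato 180 of 240 were, against 44.5% of all tomato genes there. With the 3 DAG columns exchanged these counts were 117 of 238 (3.34% of all tomato genes) and 219 of 243 (28.2%). The share of higher genes thus exceeded that of all tomato genes in both heterografts, under both readings.

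Of the 111 lower genes, 82 of 108 were lower by a log2 change of 1 or more in tomato:pepper as labelled, against 19.9% of all tomato genes, and 77 of 108 with the columns exchanged, against 7.54%. In pepper:tomato as labelled, 28 of 100 were lower, against 7.68%, and 49 were higher, against 44.5%. The median of these 100 genes was 0.96 there, above that of 0.83 over all tomato genes. Without the genes listed at 0 at 3 DAG in the self-graft, 88 were left, and their median of 0.56 was below that of all tomato genes. Of these 88, 26 were lower and 39 higher by a log2 change of 1 or more. With the columns exchanged, 30 of 79 were lower there, against 4.49%, and 16 were higher, against 28.2%. As labelled, more of the set was thus higher than lower in pepper:tomato, and fewer with the columns exchanged. The difference between the heterografts was not tested.

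Several single genes depended on the labels at 3 DAG. As labelled, JRE4 went from 0.628 to 16.7 FPKM in tomato:pepper and from 0.645 to 0.132 FPKM in pepper:tomato. LBD18 went from 0.322 to 5.68 FPKM in the former and from 0.213 to 0.156 FPKM in the latter. NAC104 went from 46.8 to 6.11 FPKM in tomato:pepper and from 4.73 to 23.5 FPKM in pepper:tomato. With the columns exchanged, JRE4 and LBD18 were higher at 3 DAG in pepper:tomato alone, with log2 changes of 3.43 and 2.46. NAC104 had log2 changes of -2.75 in tomato:pepper and 2.09 in pepper:tomato as labelled, and of -0.97 and 0.31 exchanged. Over all tomato genes the medians were -0.57 in tomato:pepper and 0.83 in pepper:tomato as labelled, and -0.13 and 0.49 exchanged. The exchanged value of 0.31 for NAC104 thus lay below that of all tomato genes. RAP2.6L was lower at 3 DAG in both heterografts under both readings, with log2 changes of -2.03 and -0.95 as labelled and -1.54 and -1.45 exchanged, for tomato:pepper and pepper:tomato.

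In the pepper self-graft, 31 of 33 pepper genes that share a name with a tomato gene reached 1 FPKM at 1 or 3 DAG. Their values are as deposited and were not rescaled, while the pepper FPKM sum was larger at 3 than at 1 DAG. LBD18 was higher at 3 DAG in pepper too, with 2.23 and 9.67 FPKM (1.72). One LBD4 gene, CA02g00820, went from 5.70 to 57.3 FPKM (3.12), and the other, CA12g22480, from 75.2 to 14.5 FPKM (-2.30). WRKY46 went from 73.5 to 21.2 FPKM (-1.75). The pepper STZ gene went the other way, from 141 to 300 FPKM (1.09), where the tomato STZ genes had -0.11 and -0.88. The ethylene response factor gene CA05g14470 went from 11.7 to 42.5 FPKM (1.77). Of the pepper PXY genes, CA05g14410 went from 14.9 to 6.84 FPKM (-1.02) and CA03g15770 had a change of -0.50. ER went from 8.88 to 3.26 FPKM (-1.21). LHW, at -0.83 for the abundant tomato gene, had 194 and 19.0 FPKM in pepper, a log2 change of -3.28. NST1 differed in sign, with 1.28 and 0.0789 FPKM in pepper (-1.08) against 1.03 in tomato. Each of these NST1 genes passed the limit of 1 FPKM through its higher group alone, and the tomato change was 0.58 with equal sums. In all, 4 of the 31 pepper genes were higher and 6 lower by a log2 change of 1 or more, against 16.5% and 18.8% of all pepper genes, and none of these differences between species was tested.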

How the data were processed

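Graft junctions were sequenced by the authors as directional single-end poly(A) RNA libraries. Reads were trimmed, aligned with hisat2 to the tomato genome annotation ITAG3.2 and quantified with Cufflinks through TuxNet, with versions not given in the sources used here. The deposited FPKM values are the authors' values, 1 per gene and group of 4 libraries. Each value pools 4 libraries, so steps of single reads could not be read from low values and depth is unknown. The organism label of the self-graft samples, Capsicum annuum, goes against their titles and treatment labels, which were followed. The tables also hold the authors' own log2 fold changes and q-values for pairs of time points, which were not used.

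From the deposited values, log2((3 DAG + 1)/(1 DAG + 1)) was computed with Python 3.11.15, pandas 2.3.3 and numpy 2.4.6. Genes under 1 FPKM in both groups were left out. Thresholds were 2 and 1 on the log2 scale. With 1 value per group, no test was run from the FPKM values. In 1757 rows, 3889 gene models are joined by the authors into 1 value, and these rows were kept. Named were the 56 tomato genes that the study gives an identifier, with values at 1 FPKM or more, and the 2 largest increases and 2 largest decreases at 10 FPKM or more. The latter were taken among genes above 0 in both groups, since no fold is given against 0. Lists by gene description could not be used, because 0 tomato identifiers matched the reference table. Members, gene lists and thresholds were chosen with earlier results of these data known. Steps were tested on simulated data. Alternatives were the pseudocount, the filter, the threshold and the scaling. Leaving out genes listed at 0, leaving out joined rows, the threshold of 1 with equal sums, and centring or exchanging the heterograft values were added after the data were seen. Figures were drawn with matplotlib 3.10.9.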

Additional observations from a re-analysis of the deposited data

How the results depend on the processing

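The direction of the excess rests on the scaling, and both counts on the pseudocount. Against 279 higher and 111 lower genes, a pseudocount of 0.1 FPKM gave 524 and 273, and one of 5 FPKM gave 138 and 30. The log2 threshold of 1 gave 2358 and 932. Equal sums gave 111 and 302, equal upper quartiles 179 and 170, and equal sums with the threshold of 1 gave 603 and 4305. No filter, a filter of 5 FPKM, centring on the median, leaving out genes listed at 0 and keeping rows of 1 gene model only moved neither count by over 1.5 times. Of the 46 named genes, equal sums took 7 under a log2 change of 1, put 10 past it and changed the sign of 9 that had been under it. Equal upper quartiles did so for 2, 5 and 4 genes, a pseudocount of 5 FPKM took 8 under it, and centring took 1 under it. No paired analysis was possible because the tables give 1 value per group and none per replicate, so neither a replicate block nor leaving out a replicate was run.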
